A study of Mus musculus with 96 samples.

Results

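The clones described here were 40 barcoded leukaemia clones of LSK origin that were abundant in the cell pool before transplantation and stayed small in the recipient mice. They were chosen by measured levels, as the GFP barcodes at or over 5000 CPM (counts per 1000000 barcode reads, as deposited) in the LSK pool that stayed under 10000 CPM in every bone marrow and spleen library of mice given LSK cells, alone or with GMP cells. The 40 are part of 1331 GFP barcodes, of 4675 barcodes in all. A further 11 LSK pool clones passed the 5000 CPM minimum but reached 10000 CPM in some library. Because the measured levels chose these clones, their loss from the pool is given as a description, with no test.

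The study transplanted mouse leukaemias made from 2 kinds of blood progenitor, LSK and GMP, and its design names a competition between these cells of origin. LSK (Lin-, c-Kit+, Sca-1+) and GMP cells were sorted from the bone marrow of C57BL/6 females aged 6 to 8 weeks. Both were transduced with an MLL-AF9 retrovirus and with SPLINTR barcode libraries, so all groups shared the oncogene, and no group had a further treatment in the labels. Recipients were of strain Ptprca or NSG. LSK cells alone went to Ptprca mice 1 to 3 and NSG mice 9 to 12, and LSK with GMP cells to Ptprca mice 17 to 20 and NSG mice 21 to 24. These 15 mice gave 29 libraries, since mouse 24 had a spleen library only. GMP cells alone went to 4 mice of each strain, whose 16 libraries serve as background for GFP barcodes. Each kind of transplant rests on 1 pool, with 2 PCR duplicates collapsed into 1 value, so differences between pools or sorts were not sampled. Recipient age and sex, cell dose and time of harvest are not given in the sources used here.

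LSK cells are an immature bone marrow population that includes the haematopoietic stem cells, and GMP cells are committed precursors of granulocytes and monocytes. MLL-AF9 is a fusion oncogene of acute myeloid leukaemia that can transform either population. A SPLINTR barcode is an expressed, heritable DNA tag, so the share of reads with 1 barcode follows the share of cells descended from 1 tagged founder. Ptprca mice are C57BL/6 mice with the Ptprca form of CD45 and an intact immune system, whereas NSG mice lack B, T and NK cells.

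The 48 libraries held 4257581 to 8499553 barcode reads. In mice given LSK cells alone the lowest share of reads with GFP names was 99.9%. Levels below are therefore given as library CPM, the CPM within the GFP-named reads, so that mixed libraries compare with the others. The GFP reads of the recipients numbered 1863456 to 8497406, and a count of 0 allows up to 0.353 to 1.61 library CPM, the level of 3 reads. Limits of this kind cover counting error only, because PCR reads are not independent molecules. In mice given GMP cells alone the 40 barcodes summed to 0 to 46.4 CPM, with a median of 1.24 and 3 libraries at 0. The highest single value there was 32.7 CPM, for GFP_Barcode_15287 in the spleen of mouse 13. That spleen was 1 of 5 libraries of GMP recipients with at least 0.1% of reads from a barcode library not given to the mouse or at least 1% from barcodes in no pool. In the other 11 the 40 barcodes summed to at most 11.2 CPM, and the highest single barcode was at 1.5 CPM. Of the 29 libraries of mice given LSK cells, the spleen of mouse 10, the marrow of mouse 12 and the spleen of mouse 18 met these minima, and the comparisons were repeated without them. A share says nothing of cell numbers, so loss of a clone and growth of the rest of the leukaemia cannot be told apart.

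In the LSK pool the 40 clones lay between 5154 and 25519 CPM, with a median of 6591. Together they held 33.1% of it, against 13.6% for the 11 abundant clones that reached 10000 CPM in a mouse. In the mixed pool they held 31.8% of GFP reads, and each clone stood at 0.844 to 1.07 times its LSK pool level, with a median of 0.962. The clones therefore entered both kinds of recipient at nearly the same relative levels. In the GMP pool 4 of the 40 had any read, none above 0.206 CPM.

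The pool minimum lay in a region without a gap. The lowest clones inside it were GFP_Barcode_26387 at 5154 CPM, GFP_Barcode_15287 at 5265 CPM and GFP_Barcode_117876 at 5272 CPM. GFP_Barcode_31063 at 4945 CPM, GFP_Barcode_10674 at 4914 CPM and GFP_Barcode_28689 at 4899 CPM lay just outside. At the maximum, the nearest clones inside peaked at 8733 CPM (GFP_Barcode_39656), 8311 CPM (GFP_Barcode_3877) and 8167 CPM (GFP_Barcode_15287). The nearest outside peaked at 10678 CPM (GFP_Barcode_86073), 10857 CPM (GFP_Barcode_61835) and 11190 CPM (GFP_Barcode_12105). GFP_Barcode_86073 and GFP_Barcode_61835 held 12051 and 25202 CPM in the pool, so reaching 10000 CPM in a mouse did not mean growth over the pool.

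That the 40 clones never expanded holds for the rule but not for every clone and library. GFP_Barcode_39656 held 8733 CPM in the marrow of mouse 3 against 8516 CPM in the pool. GFP_Barcode_15287 held 8167 CPM in the marrow of mouse 1 against 5265 CPM in the pool. On library CPM, 5 clones exceeded their level in the pool given to the mouse in at least 1 library, in 9 clone and library combinations, by at most 2.74-fold. The maximum was set on deposited CPM, in which mixed libraries also hold GMP-derived reads, so it corresponded to 12561 to 30850 library CPM there. On library CPM 6 clones passed 10000, each in the marrow of mouse 17, 18 or 19, the highest being GFP_Barcode_429 at 14314 in mouse 19. The other 34 stayed under 10000 library CPM in every library.

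The clones lost most of their pool share in every mouse, and more of it in NSG than in Ptprca mice. In Ptprca mice given LSK cells alone they held 2.76%, 2.51% and 3.01% of the library in mice 1, 2 and 3, averaged over both tissues (mean 2.76% ± 0.251, SD, n = 3). In NSG mice given LSK cells alone they held 0.154%, 0.297%, 0.429% and 0.272% in mice 9 to 12 (mean 0.288% ± 0.113, SD, n = 4). Every Ptprca mouse lay above every NSG mouse.

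With GMP cells present the clones held 3.0%, 3.39%, 2.15% and 1.16% in Ptprca mice 17 to 20 (mean 2.43% ± 0.988, SD, n = 4). In NSG mice 21 to 24 they held 0.164%, 0.0907%, 0.00742% and 0.0433% (mean 0.0763% ± 0.0676, SD, n = 4). The strains again did not overlap. Within each strain the mice with and without GMP cells did overlap, in NSG mice only through mouse 21 at 0.164% and mouse 9 at 0.154%.

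Relative to their pool the clones thus kept 8.34% ± 0.758 of their share in Ptprca mice given LSK cells alone and 7.64% ± 3.11 with GMP cells (SD, n = 3 and 4). They kept 0.871% ± 0.341 in NSG mice given LSK cells alone and 0.240% ± 0.213 with GMP cells (SD, n = 4 each). The lowest value was in NSG mouse 23, where they stood 4282-fold below the pool. The spleen of that mouse held 32.1 CPM of the 40 barcodes as deposited, less than the 46.4 CPM seen in the highest library of a mouse given no LSK cells. Its marrow held 70.9 CPM, above all of those libraries.

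These sums depended on the few clones nearest the maximum. Without the 6 clones that passed 10000 library CPM, the other 34 held 1.30% and 0.842% of the library in Ptprca mice without and with GMP cells. In NSG mice those 34 held 0.0940% and 0.0511%. The order of the 4 groups was the same.

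Fewer of the clones were found in NSG mice. At a minimum of 100 library CPM, 20.0 ± 3.61 clones (SD, n = 3) were found per Ptprca mouse given LSK cells alone and 17.8 ± 2.06 (SD, n = 4) with GMP cells. In NSG mice the numbers were 4.25 ± 1.71 and 2.0 ± 1.63 (SD, n = 4 each). Counted over all mice of a group, 26 and 27 of the 40 passed the minimum in Ptprca mice, beside 23.9% and 24.2% of the 679 GFP clones at or over 100 CPM in the LSK pool. In NSG mice 7 and 6 of the 40 did so, beside 9.57% and 7.66% of the 679. All 679 include far rarer pool clones, which have less to lose before they fall under the minimum.

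Over the 15 mice 19 clones kept under 1% of their LSK pool level, 15 kept 1% to 10% and 6 kept over 10%. The median clone kept 1.10%, and the range ran from 0.000646% for GFP_Barcode_5376 to 34.2% for GFP_Barcode_15287. Pool level and percentage kept were weakly related over the 40 clones (Spearman's rho 0.206, across clones of the same libraries, which are not independent).

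The most abundant clone of the pool among the 40, GFP_Barcode_13743 at 25519 CPM, kept 0.443%. It held 89.3, 326 and 534 library CPM in Ptprca mice 1 to 3 and 252, 4.22, 1.24 and 489 in mice 17 to 20. In NSG mice it did not exceed 0.715. GFP_Barcode_1207, at 20601 CPM in the pool, held 22.2 to 536 library CPM in mice 1 to 3 and 6549 in mouse 18, but 13.6 to 197 in the other mixed Ptprca mice. In NSG mice it stayed at or under 3.84.

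GFP_Barcode_89551, at 13330 CPM in the pool, kept 0.0938% and passed 100 library CPM only in mouse 19, at 107. GFP_Barcode_91068, at 11323 CPM, kept 0.938%. It held 48.2 to 465 library CPM over mice 1 to 3 and 127 to 343 over mice 17 to 20, with at most 1.32 in any NSG mouse. GFP_Barcode_3877, at 18685 CPM in the pool, was the exception among the 5 most abundant and kept 9.0%.

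At the other end, 8 of the 40 stayed under 100 library CPM in all 29 libraries. GFP_Barcode_5376, GFP_Barcode_92387 and GFP_Barcode_117876 had 5341, 6086 and 5272 CPM in the pool. They never exceeded 0.645, 0.484 and 0.792 deposited CPM in a recipient, where the highest values in mice given no LSK cells were 0.166, 0.173 and 0.333. GFP_Barcode_17274, at 8883 CPM in the pool, peaked at 9.50 CPM in the spleen of mouse 3 and had reads in 3 of 29 libraries. GFP_Barcode_73660, at 5405 CPM in the pool, peaked at 13.4 CPM in the spleen of mouse 18. These 5 clones were at or near the background in most mice.

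No clone of the 40 was without reads throughout the libraries of either strain. In the marrow of NSG mouse 11, 39 of the 40 had reads, 25 of them under 1 library CPM, whereas mouse 9 had reads of 9 of the 40. Values this low also occurred in mice given no LSK cells, where the highest value of the median clone was 0.407 CPM. They were therefore not counted as presence.

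A few clones made up much of what was left. The 5 with the highest mean over the 15 mice were GFP_Barcode_15287, GFP_Barcode_3877, GFP_Barcode_39656, GFP_Barcode_125674 and GFP_Barcode_429. They held 14.3% of the clones' summed level in the LSK pool. In the mice they held 52.0% ± 4.65 (n = 3) and 58.8% ± 21.6 (n = 4) of it in Ptprca mice without and with GMP cells. In NSG mice they held 65.2% ± 19.1 and 38.1% ± 18.8 (SD, n = 4 each). The 5 were chosen by their levels in these same mice, so a rise over their pool percentage is in part fixed by the choice.

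GFP_Barcode_15287 was the largest of the 40 in NSG mice 9, 10 and 11, at 1097, 1106 and 3639 library CPM. In mouse 12 it held 376, and GFP_Barcode_39656 was the largest there at 694. GFP_Barcode_15287 made up 71.1%, 37.3% and 84.8% of the summed level in mice 9, 10 and 11. In Ptprca mice given LSK cells alone it held 4314, 798 and 2754 library CPM, within the range of the NSG mice except for mouse 1.

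In mixed recipients GFP_Barcode_15287 held 8546, 676, 2625 and 771 library CPM in Ptprca mice 17 to 20, and 244, 44.9, 0 and 32.3 in NSG mice 21 to 24. All 4 NSG mice with GMP cells lay below all 4 without them. In a limma test over the 679 GFP clones at or over 100 CPM in the LSK pool, the difference of -4.54 log2 units (SE 1.09) did not pass (limma adjusted p = 0.461). GFP_Barcode_15287 also had the highest background of the 40, at 32.7 CPM as deposited in the spleen of mouse 13. That library was among those that met the minima for foreign barcodes. In the other libraries of mice given no LSK cells it was at most 2.48 CPM. On the same scale it held 15.5 and 31.9 CPM in the marrow and spleen of mouse 22, 17.8 in mouse 24 and 0 in mouse 23.

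GFP_Barcode_39656 held 2320, 3366 and 4817 library CPM in mice 1 to 3 and 5349, 1321, 1754 and 607 in mice 17 to 20. In NSG mice it ranged from 7.01 to 694 in mice 9 to 12 and from 28.9 to 443 in mice 21 to 24. All Ptprca mice given LSK cells alone lay above all NSG mice, and mixed Ptprca mice above mixed NSG mice.

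To describe what was left by host, the 679 clones at or over 100 CPM in the LSK pool were tested with limma on log2(library CPM + 10), with 1 value per mouse and an adjusted p under 0.05 as the call. The 10000 CPM maximum was applied to these same libraries and took out 11 abundant clones that were large in some mouse of either strain. The counts, directions and medians over the 40 below, by host, GMP cells and tissue, are therefore in part fixed by the choice of clones. They are given as a description, beside the percentage over all 679, and nothing is read from the excess. Of the 679, 210 were at 0 in all mice given LSK cells alone, 349 in all mixed mice and 192 in all 15 mice. Clones at 0 in all mice compared have a difference of 0 and are not called. They draw the medians and percentages over all 679 toward 0. Counts of differences above or below 0 include clones at background traces and are given for the 40 only. The adjusted p of a single clone is that of the fit over all 679. Without GMP cells 16 of the 40 were higher in Ptprca than in NSG mice, where 10.3% of all 679 were called in that direction. None was lower, where 0.147% of all were. The median difference was 2.25 log2 units over the 40 and 0.01 over the 679, and 40 of 40 were above 0. Over all 51 clones at or over 5000 CPM in the LSK pool, a set that no level in a mouse chose, 19 were higher in Ptprca mice and 1 was lower, with a median of 2.28.

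With GMP cells 15 of the 40 were higher in Ptprca mice (6.92% of all 679) and none was lower (0.295% of all). The median difference was 2.36 over the 40 and 0 over all. Over the 51 abundant clones 19 were higher and 2 lower, with a median of 2.45. Of the 16 and 15 clones, 12 were called in both kinds of recipient and 19 in at least 1. The groups did not overlap, with every Ptprca mouse above every NSG mouse, for 26 of the 40 without GMP cells (20.3% of all 679) and for 20 with them (12.5% of all). The reverse held for none of the 40 in either (0.442% and 0.295% of all).

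GFP_Barcode_3877 had the largest host difference in both. It held 4156, 3734 and 5288 library CPM in mice 1 to 3 and 0, 3.83, 3.71 and 0.278 in NSG mice 9 to 12. With GMP cells it held 5787, 1430, 3514 and 1300 in mice 17 to 20 and 3.75, 1.66, 0 and 0 in mice 21 to 24. All 7 Ptprca mice kept over 1000 library CPM, and no NSG mouse had more than 3.83, beside a highest value of 1.11 CPM in mice given no LSK cells. The differences were 8.53 (SE 0.47, limma adjusted p = 2.83e-07) and 7.79 log2 units (SE 0.44, limma adjusted p = 3.3e-07). As the NSG values lay under the pseudocount of 10, these sizes depend on it.

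GFP_Barcode_87062 held 1702, 685 and 1066 library CPM in mice 1 to 3 and at most 0.260 in NSG mice 9 to 12. The difference was 6.75 log2 units (SE 0.54, limma adjusted p = 1.02e-05). GFP_Barcode_125674 held 2289, 3815 and 2423 in mice 1 to 3 against 10.0, 14.1, 0.390 and 297 in NSG mice, a difference of 6.30 (SE 1.15, limma adjusted p = 0.00395). For both clones the strains did not overlap, but in NSG mouse 12 GFP_Barcode_125674 stood well above the other 3.

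With GMP cells GFP_Barcode_125674 held 1725, 7776, 865 and 446 library CPM in Ptprca mice 17 to 20 and 24.1, 25.7, 0 and 36.1 in NSG mice 21 to 24. The difference was 5.80 log2 units (SE 1.06, limma adjusted p = 0.00406). GFP_Barcode_429 held 2332, 92.5, 7179 and 2540 against 8.74, 4.70, 0 and 0, a difference of 6.81 (SE 1.23, limma adjusted p = 0.00406). The strains did not overlap for either clone, although Ptprca mouse 18 was far below the other 3 for GFP_Barcode_429.

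The counts of host calls depended on the tool and the groups fitted. Among the 40, edgeR on recovered reads with library size called 6 without and 13 with GMP cells, and with TMM scaling 0 and 1, where it called 2 and 10 of all 679. Without NSG mouse 9 or without NSG mouse 11, limma called 10 of the 40 in recipients of LSK cells alone. When only the 2 mixed groups were fitted it called 8 of the 40 with GMP cells, all higher in Ptprca mice. In single tissues the calls were 10 in marrow and 11 in spleen without GMP cells, and 10 and 7 with them. Totals over all clones for edgeR with library size are given with the processing. Those for marrow without GMP cells and for the 2 mixed groups are given with the alternatives. Counts with no total are not read as a result about the 40.

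For the presence of GMP cells, mixed recipients were compared with recipients of LSK cells alone in each strain. The mixed mice received a pool with 50.6% GFP reads, so presence of GMP cells and a smaller number of LSK cells cannot be told apart. In Ptprca mice 2 of the 40 were lower with GMP cells (1.33% of all 679) and none was higher (0.147% of all). The median difference was -0.33 over the 40 and 0 over all, with 25 of the 40 below 0.

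GFP_Barcode_71452 held 603, 1110 and 1034 library CPM in mice 1 to 3 but 0.290, 0, 0 and 138 in mice 17 to 20. Its pool levels were 6289 library CPM in the LSK pool and 6376 in the mixed pool. The groups did not overlap, and it fell by 5.50 log2 units (SE 0.88, limma adjusted p = 0.00616). In NSG mice it was low in both, at most 35.1 without and 7.49 with GMP cells. Its host difference without GMP cells was 5.74 (SE 0.88, limma adjusted p = 0.00151).

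GFP_Barcode_10115 held 342, 53.6 and 129 library CPM in mice 1 to 3 and 0, 16.6, 35.6 and 7.41 in mice 17 to 20. It fell by 2.77 log2 units (SE 0.56, limma adjusted p = 0.0243), and the groups did not overlap. In NSG mice it did not exceed 0.195. For neither clone did the effect of GMP cells differ between the strains at the threshold, with differences of -4.97 (SE 1.2, limma adjusted p = 0.135) for GFP_Barcode_71452 and -2.76 (SE 0.76, limma adjusted p = 0.256) for GFP_Barcode_10115.

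Both calls depended on the settings. Neither passed with edgeR, in spleen alone, with a pseudocount of 1 CPM or when only the 2 groups were fitted, where the limma adjusted p was 0.583 for GFP_Barcode_71452 and 0.699 for GFP_Barcode_10115. Limma called 4 of the 40 without Ptprca mouse 3, 3 of them lower with GMP cells and 1 higher. It called 1 without Ptprca mouse 17 and 1 without mouse 20.

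In NSG mice limma called none of the 40 as changed with GMP cells, and 0% of all 679. At an unadjusted p under 0.05 it was 1 of 40 and 9 of 679, and edgeR called none of the 40 with either scaling. The median difference was -0.02 over the 40 and 0 over all 679, with 35 of the 40 below 0. Signs this close to 0 can rest on background traces. Of the 40, 16 had reads in mouse 11 and none in mice 9, 10 and 12, with at most 3.84 library CPM as a mean of both tissues. On average only 8.75 of the clones per NSG mouse without and 5.5 with GMP cells reached 10 library CPM, the pseudocount. For the rest there was little signal in which a change could show. For the difference of the host effects between recipients with and without GMP cells, limma called none of the 40 (0.295% of all 679 in either direction). At an unadjusted p under 0.05 it was 5 of 40 and 37 of 679, and edgeR called none of the 40. Without Ptprca mouse 3 limma called 2, and without mouse 2 or without mouse 20 it called 1.

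Bone marrow held more of the clones than spleen in Ptprca mice. Their summed share was 4.91%, 4.37% and 5.04% in the marrow of mice 1 to 3 and 0.606%, 0.641% and 0.972% in the spleen. In mice 17 to 20 it was 5.27%, 6.17%, 3.69% and 1.91% in marrow and 0.721%, 0.622%, 0.616% and 0.422% in spleen. Marrow was 4.52 to 9.91 times spleen, with a median of 6.81, and was higher in 7 of 7 mice.

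In NSG mice the summed share was 0.0581%, 0.348%, 0.787% and 0.366% in the marrow of mice 9 to 12 and 0.251%, 0.245%, 0.0719% and 0.179% in the spleen. It was 0.227%, 0.132% and 0.0108% in the marrow of mice 21 to 23 and 0.101%, 0.0492% and 0.00403% in their spleen. Marrow was higher in 6 of 7 mice, with a ratio of 0.232 to 10.9 and a median of 2.26. Mouse 9 was the 1 with more in spleen, where GFP_Barcode_15287 held 1984 library CPM against 210 in its marrow.

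Clone by clone, with each mouse as a block, limma called 11 of the 40 higher in marrow than in spleen in Ptprca mice (3.68% of all 679) and none lower (0.295% of all). All 11 were also called for the host difference in at least 1 kind of recipient. The host values average these same marrow and spleen libraries, so the overlap is in part built in and nothing is read from it. The median difference was 1.56 log2 units over the 40 and 0 over all 679, with 35 of the 40 above 0. Over the 51 abundant clones 14 were higher in marrow and 0 lower, with a median of 1.51. Marrow exceeded spleen in every Ptprca mouse for 6 of the 40 (2.8% of all). Neither edgeR setting called any of the 40, and each called 2 of all 679.

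GFP_Barcode_37432 held 401 to 2440 library CPM in the marrow of the 7 Ptprca mice (median 883) and 17.4 to 153 in their spleen (median 49.5). GFP_Barcode_87062 held 151 to 3342 in marrow (median 1245) and 16.5 to 124 in spleen (median 65.3). Marrow was higher in 7 of 7 mice for both. The differences were 3.92 (SE 0.40, limma adjusted p = 3.21e-05) and 3.78 log2 units (SE 0.39, limma adjusted p = 3.21e-05).

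GFP_Barcode_429 held 32.4 to 14314 library CPM in marrow (median 4601) and 13.7 to 92.3 in spleen (median 65.7). Marrow was higher in 6 of 7 mice, with the reverse in mouse 3, and the difference was 4.19 log2 units (SE 0.86, limma adjusted p = 0.0130). Its spleen level varied far less between mice than its marrow level.

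In NSG mice limma called none of the 40 between marrow and spleen (0% of all 679). At an unadjusted p under 0.05 it was 0 of 40 and 8 of 679, and edgeR called none of the 679. The tissue difference was larger in Ptprca than in NSG mice for 3 of the 40 (0.736% of all 679) and smaller for none (0.147% of all). These were GFP_Barcode_37432, by 3.99 log2 units (SE 0.56, limma adjusted p = 0.00176), GFP_Barcode_87062, by 3.80 (SE 0.55, limma adjusted p = 0.00176), and GFP_Barcode_3877, by 2.66 (SE 0.33, limma adjusted p = 0.000799).

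All 3 were near or at the background in both NSG tissues, so there was little signal in which marrow and spleen could differ. GFP_Barcode_3877 held 2108 to 10649 library CPM in Ptprca marrow (median 6504) and 441 to 2261 in spleen (median 964), but at most 7.41 and 7.67 in NSG marrow and spleen. Without the 3 libraries with foreign barcodes 1 of the 3 was called, and the adjusted p of GFP_Barcode_37432 and GFP_Barcode_87062 was 0.0514 each (limma). Without Ptprca mouse 1 the count was 5, and edgeR called none of the 40.

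Some of the 40 did not vary independently. Over the 780 pairs of clones, the median Pearson correlation of log2(library CPM + 10) over the 29 libraries was 0.387. A correlation of 0.97 or more was seen in 2 pairs, chosen after their values were seen. GFP_Barcode_55490 and GFP_Barcode_103752 correlated at 0.988 over all libraries and 0.990 over the 14 Ptprca libraries. GFP_Barcode_16022 and GFP_Barcode_21010 correlated at 0.974 and 0.990. The points share libraries and depth, so these are descriptions.

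The ratio of GFP_Barcode_55490 to GFP_Barcode_103752 was 1.45 in the LSK pool. In the 16 libraries with both at or over 100 library CPM it had a median of 1.40 and a range of 1.03 to 1.71. Both were low in mouse 17, at 37.7 and 8.84 library CPM, and high in mouse 18, at 3650 and 2559. The ratio of GFP_Barcode_16022 to GFP_Barcode_21010 was 1.21 in the LSK pool. It had a median of 1.45 over 22 libraries, with a range of 1.03 to 2.34. Whether the barcodes of a pair mark 1 clone or separate clones was not tested, so the 40 barcodes may stand for fewer than 40 founders.

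These 4 barcodes were also those with reads in all 29 libraries. GFP_Barcode_16022 held 736 to 1691 library CPM in mice 1 to 3 and 142 to 814 in NSG mice 9 to 12. With GMP cells it held 613 to 1406 in mice 17 to 20, and 163, 164, 8.07 and 162 in NSG mice 21 to 24. It was at or over 100 library CPM in 14 of 15 mice, the most of the 40, and NSG mouse 23 was the exception. Its host difference without GMP cells was not called, and that with GMP cells was 3.13 log2 units (SE 0.78, limma adjusted p = 0.0267).

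Compared with the rest of the LSK pool, the losses of summed level in Ptprca mice were close to those of less abundant clones. Ptprca mice without and with GMP cells kept 8.81% ± 2.31 and 9.51% ± 3.72 of the summed level of 151 clones at 1000 to 5000 CPM in the pool that also stayed under 10000 CPM (SD, n = 3 and 4). Both overlap with the 8.34% and 7.64% of the 40. In NSG mice those 151 kept 2.44% ± 0.614 and 2.53% ± 1.63 (SD, n = 4 each) of their summed level, above the 0.871% and 0.240% of the 40. By the median clone the order was the other way. The median clone of the 40 kept 1.49% and 1.88% in Ptprca mice, and that of the 151 kept 0.361% and 0.234%. In NSG mice the medians were 0.00268% and 0.000806% for the 40 and 0.00128% and 0% for the 151, all at the level of background traces.

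For 459 clones at 100 to 1000 CPM the percentages of the summed level were 10.2% and 10.2% in Ptprca mice and 3.29% and 2.91% in NSG mice. Their median clone kept 0% in each group. The 11 abundant clones outside the rule instead stood at 275% and 219% of their pool level in Ptprca mice and 523% and 491% in NSG mice. As levels chose all these sets, and 1 maximum cuts deeper into the abundant ones, no difference between them was tested. Higher calls in Ptprca mice without GMP cells numbered 26 of the 151, 21 of the 459 and 3 of the 11 (10.3% of all 679). Lower calls numbered 0 of the 151, 0 of the 459 and 1 of the 11 (0.147% of all 679).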

How the data were processed

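Barcodes were counted in DNA from bone marrow, spleen and cell pools, and the mouse was the replicate. The authors deposited CPM (counts per 1000000 barcode reads) after filtering barcodes and collapsing PCR duplicates, per the file headers and labels. Bowtie 1.2.2 and R 3.6 were used, per the submitters' processing notes. Alignment settings, filters and the barcode reference are not given in the sources used here, nor is whether duplicates were summed or averaged. The labels give genomic DNA, although their extraction protocol is that of a droplet experiment. Barcodes missing from 1 of the 2 tables were set to 0 there.

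Values were rescaled to the GFP-named reads of each library, and both tissues of a mouse were averaged for comparisons between mice. Clones at or over 100 CPM in the LSK pool were tested on log2(library CPM + 10) with limma 3.58.1 (lmFit, eBayes with trend, two-sided, Benjamini-Hochberg over 679 clones), the 4 groups in 1 fit. A log2 difference under 1e-09, which is rounding between equal means, was taken as 0 with a p of 1, a step added after the fits were seen. Tissues were compared in a fit with the mouse as a block, the pairing coming from the labels' mouse numbers. In all, 100% of values were whole reads within 0.01 of a read. edgeR 4.0.16 (quasi-likelihood test) on these reads was an alternative, and it called 37 clones without and 53 with GMP cells between hosts. The labels do not say whether mice were given cells on 1 day, so batches of transplantation could not be examined.

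The clones, comparisons and lists were chosen with earlier results of these data known. Clones with values named are the 5 highest in the pool, the 5 highest and 5 lowest over mice, up to 3 called per direction of each comparison, those nearest each threshold, and those above their pool level. Others were named after their values were seen. The tests were tried on simulated reads in which every clone had a mean above 0. Of the 679 tested clones, 192 were at 0 in all 15 mice, a setting that the simulation did not cover. Alternatives were other pseudocounts (1 and 100 CPM), filters, scalings, tissues, edgeR, fewer groups, 3 libraries left out and each mouse left out. The rule applied to library CPM as well was added after seeing the data. Barcode sequences and genomic positions were not used here.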

Additional observations from a re-analysis of the deposited data

Results flagged for a closer look

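Mice far from the rest of their group were looked for in 60 sets of 4 mice, for 18 named clones and 2 summed values in 3 groups, and 17 were found. A rate of about 1 in 20 such sets by chance would hold for normally distributed values only. Library CPM here spanned orders of magnitude, so the number expected by chance is not known. The rate also does not apply to the 11 sets in which the other 3 mice were at 0, where a single read sets a mouse apart. In Ptprca mice given both kinds of cell, GFP_Barcode_1207 stood at 6549 library CPM in mouse 18 against at most 197 in the others. In the same group GFP_Barcode_71452 stood at 138 in mouse 20 against at most 0.290, GFP_Barcode_73660 at 19.4 in mouse 18 and GFP_Barcode_92387 at 0.268 in mouse 20, with the other mice at 0.

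In NSG mice given LSK cells alone, GFP_Barcode_125674 stood at 297 library CPM in mouse 12 against at most 14.1. Among the 18 clones searched, mouse 11 stood apart for 9 by traces of 0.130 to 3.84 library CPM, with the other mice at or near 0. These were GFP_Barcode_1207 at 3.84, GFP_Barcode_17274 at 0.780, GFP_Barcode_13743 at 0.715, GFP_Barcode_89551 at 0.455, GFP_Barcode_10115, GFP_Barcode_5376 and GFP_Barcode_73660 at 0.195 each, and GFP_Barcode_117876 and GFP_Barcode_92387 at 0.130 each. Over all 40 clones, 16 had reads in mouse 11 and none in mice 9, 10 and 12. In the marrow library of mouse 11, 39 of the 40 had reads.

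In NSG mice given both kinds of cell, GFP_Barcode_39656 stood at 443 library CPM in mouse 22 against at most 72.8. GFP_Barcode_71452 stood at 7.49 in mouse 24 against at most 0.276, and GFP_Barcode_1207 at 0.323 in mouse 21 with the others at 0.

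The difference between marrow and spleen was larger in Ptprca than in NSG mice for GFP_Barcode_37432 by 3.99, GFP_Barcode_87062 by 3.80 and GFP_Barcode_3877 by 2.66 log2 units, by a limma test of the difference itself.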

How the results depend on the processing

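No difference of a named clone that was called changed sign under the alternatives run, and no count of calls changed its prevailing direction. These named differences were the same in 255 alternative fits and weaker in 36, with at least 1 weaker fit for each. The effect of GMP cells in Ptprca mice was weaker in 9 fits for GFP_Barcode_10115 and in 5 for GFP_Barcode_71452. Of the counts and group values, 193 stayed close to the value reported and 55 moved. The causes were not tested.

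Of the 40 clones, 16 were called between hosts without GMP cells, but 6 with edgeR and library size, 0 with edgeR and TMM, 10 in marrow alone and 10 to 14 with each mouse left out. With GMP cells 15 were called, but 9 on CPM as deposited, 1 with TMM, 7 in spleen alone and 8 with only the 2 mixed groups fitted. The 2 calls for GMP cells in Ptprca mice became 0 with a pseudocount of 1 CPM, either edgeR setting, spleen alone or only the 2 groups fitted. They became 1 with a pseudocount of 100 CPM, a filter on the mean or no filter, 7 on CPM as deposited and 1 to 4 with each mouse left out. The difference of host effects by GMP cells gave 3 on CPM as deposited, 1 with a pseudocount of 100 CPM and 0 to 2 with each mouse left out. The 11 tissue calls in Ptprca mice were 11 with no replicate block, and the paired and unpaired fits gave the same other counts of these clones. edgeR called 0 with either scaling. The 3 differences of tissue effects became 6 with a filter on the mean, 0 with edgeR, 1 without the 3 libraries with foreign barcodes and 3 to 5 with each mouse left out. All these are counts of the 40, and the calls over all clones moved with the settings as well.

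Over all clones limma called 71 of 679 between hosts without GMP cells, but 46 of 1209 with no filter, 41 with a pseudocount of 100 CPM and 47 in marrow alone. With GMP cells it called 49, but 30 with only the 2 mixed groups fitted and 74 with a pseudocount of 1 CPM. For GMP cells in Ptprca mice it called 10, but 33 on CPM as deposited, 4 to 6 with other pseudocounts, a filter on the mean or spleen alone, and 0 with only the 2 groups fitted. With a filter on the mean, tissue calls in Ptprca mice numbered 41 instead of 27, and differences of tissue effects 16 instead of 6.

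The summed share in Ptprca mice was 4.77% in marrow and 0.740% in spleen without GMP cells, and 4.26% and 0.595% with them, or 0.924% with them on CPM as deposited. For the 34 clones under 10000 library CPM the shares were 1.30%, 0.842% and 0.0940% in the groups that moved. These had 14.7, 12.5 and 2.25 clones per mouse. Clones per mouse were 12.7 and 9.0 in Ptprca spleen and 13.75 in mixed Ptprca mice on CPM as deposited. At 10 CPM they were 27.3, 23.5, 8.75 and 5.5 in Ptprca mice without and with GMP cells and NSG mice without and with them. Counting any read they were 36.0, 29.75, 21.5 and 13.75.

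The lowest clones cannot be told from background, since values of a few reads also occur in mice given no LSK cells.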
